A study of Mus musculus with 2 samples.

Results

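The genes described here are 10 profibrotic and repair factors, *Spp1*, *Thbs1*, *Fn1*, *Tgfbi*, *Tgfb1*, *Pdgfb*, *Igf1*, *Vegfa*, *Osm* and *Gdf15*, out of 25909 genes in the count matrix. They are secreted products through which macrophages and other myeloid cells can act on stellate cells, endothelium and epithelium during repair of the liver, and they are described by source cell, diet and genotype. The study asked how the transcription factor *Egr2* bears on the macrophages that appear in the liver in metabolic dysfunction-associated steatohepatitis, a fatty liver disease with inflammation and fibrosis. Male mice aged 6 to 12 weeks were fed a normal diet (ND) or CDA-HFD, a high-fat diet that lacks choline and has defined amino acids, for 7 weeks, and both genotypes carried *Egr2* flanked by loxP sites. In *Lyz2* Cre/+.*Egr2* fl/fl mice, called Cre mice below, the recombinase is made from the *Lyz2* locus and therefore in monocytes, macrophages and neutrophils to differing degrees, while *Egr2* fl/fl mice, called control mice, lack it. Liver cells were sorted as CD45.2+CD11b+ cells without CD90.2, B220, NK1.1 or SiglecF, and their mRNA was sequenced cell by cell.

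There was 1 mouse in each of the 4 groups, so no replicate error exists, no test was made, and a difference between groups cannot be told apart from a difference between these individual mice. The 4 mice were pooled in 1 library and told apart by hashtag antibodies. After filtering, the ND-fed control mouse gave 1723 cells with 32029953 counts, and the ND-fed Cre mouse 1590 cells with 27840300 counts. The CDA-HFD-fed control mouse gave 5885 cells with 85227192 counts, and the CDA-HFD-fed Cre mouse 6186 cells with 90124521 counts. The authors loaded 3000 cells of each ND-fed mouse and 9000 of each CDA-HFD-fed mouse, so the numbers of cells do not describe the diets. The median total per cell was lower in the CDA-HFD-fed mice, at 13168 and 13476.5 counts for the control and the Cre mouse against 16459 and 15864.5 counts on ND. Levels are given as CPM, counts per 1000000 of the summed counts, with exact Poisson 95% intervals in parentheses, and ratios of CPM with exact binomial 95% intervals. These intervals cover counting error only, not differences between mice and not the spread between cells. They treat the counts of a source as independent, although few cells can hold many counts of a gene. Sources called apart or overlapping below are so by these intervals alone, and their order was not tested. Where a source had 0 counts, the level it allows and any fold against it were taken from a floor of 3 counts in that source and mouse. Levels of different genes were not compared with each other.

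*Egr2* itself was read first, as a check of the labels. It stood at 13.3 CPM in the ND-fed control mouse and 5.85 CPM in the ND-fed Cre mouse, and at 49.4 CPM against 18.2 CPM on CDA-HFD. The level was lower in the Cre mouse on both diets, at ratios of 0.441 (0.366–0.530) for ND and 0.369 (0.349–0.391) for CDA-HFD. *Lyz2*, whose locus holds the Cre insertion, was at a ratio of 0.450 (0.447–0.454) and 0.533 (0.532–0.535).

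The sources were taken from clusters of all cells named by marker genes, so that a name with "-like" rests on markers and may differ from the study's own naming. *Spp1*, *Fn1* and *Tgfbi* stand on the study's list of genes of hepatic lipid-associated macrophages (hLAMs), and *Igf1* on its list of monocyte-derived Kupffer cells, which is why the members among the variable genes were kept out of the clustering. Of the cells of the ND-fed control and Cre mice, 39.7% and 44.8% were Kupffer cell-like, the resident macrophages of the liver, led by *C6*, *Clec4f* and *Timd4*. No cell of the CDA-HFD-fed control mouse and 0.178% of those of the CDA-HFD-fed Cre mouse fell in this class. The hLAM-like cluster, led by *Mmp12*, *F7*, *Emp1* and *Gpnmb*, held 13.9% and 12.4% of the cells on CDA-HFD against 0.232% and 0.189% on ND. Monocyte-derived macrophage-like cells, led by *Tmem119*, *Olfml3* and *Pf4*, made up 6.86% and 8.05% on CDA-HFD. Clusters 3 and 5, led by *Ccr2* and *Cx3cr1* and by *Nr4a2* and *Nfil3*, missed the naming rule and are called by number. So are cluster 14, which was led by the hepatocyte genes *Ttr* and *Apoa2* but had 9 of 10 Kupffer cell markers raised, and cluster 16, with 9 of 10 neutrophil markers raised but none among its leading genes. Either may hold cells of the kind its raised markers name. Classes that exist on 1 diet only cannot be compared across diets, and a cluster made up mostly of cells of 1 mouse may be a property of that mouse.

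The first comparison was of diet. On CDA-HFD fat accumulates in hepatocytes, cells die, and stellate cells turn into matrix-producing myofibroblasts. Myeloid cells of such livers are a source of proteins that drive this process and of proteins that help to end it. The comparison asked how much mRNA of each factor the sorted cells held on CDA-HFD and on ND, in mice with and without Cre, and both diet comparisons are given side by side. They involve different mice, but each of these mice also enters a comparison of genotype, so the 4 comparisons are not independent.

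Osteopontin, encoded by *Spp1*, is a secreted phosphoprotein of bone and inflamed tissue that binds integrins and CD44 and activates stellate cells. Over all cells it was at 10.5 (9.40–11.7) CPM in the ND-fed control mouse, 7.22 (6.26–8.29) in the ND-fed Cre mouse, 285 (282–289) in the CDA-HFD-fed control mouse and 289.6 (286–293) in the CDA-HFD-fed Cre mouse. Both CDA-HFD-fed mice were far above both ND-fed mice, with ratios of 27.2 (24.4–30.4) without Cre and 40.1 (34.9–46.3) with it. The counts of this gene were concentrated in few cells. In the CDA-HFD-fed mice the 1% of cells with the most *Spp1* held 48.8% of its counts in the control mouse and 47.9% in the Cre mouse, and 1 cell of the control mouse held 6.57%.

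Latent TGF-beta lies bound in the matrix until it is released, and thrombospondin 1, the product of *Thbs1*, is a released glycoprotein that can do so. Its mRNA was at 8.43 (7.45–9.50) and 5.71 (4.86–6.67) CPM in the ND-fed control and Cre mice, and at 139 (137–142) and 157 (154–159) CPM in the corresponding CDA-HFD-fed mice. *Thbs1* was thus low on ND and higher on CDA-HFD, by 16.5 (14.7–18.7)-fold in the control mouse and 27.4 (23.5–32.3)-fold in the Cre mouse. TGF-beta 1 itself, encoded by *Tgfb1*, is the main cytokine that turns stellate cells into myofibroblasts. It differed little between diets, with 97.2 (93.8–101) and 102 (98.3–106) CPM on ND and 121 (119–123) and 110.4 (108–113) CPM on CDA-HFD. The ratios for *Tgfb1* of 1.25 (1.20–1.30) and 1.08 (1.04–1.13) were above 1 by less than 2-fold.

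Fibronectin, from *Fn1*, is a matrix glycoprotein on which fibrillar collagen assembles, and the product of *Tgfbi* is a TGF-beta-induced matrix protein that links collagen and integrins. *Fn1* was at 51.2 (48.8–53.7) and 42.0 (39.6–44.5) CPM in the ND-fed control and Cre mice and at 195 (192–197) and 145 (143–148) CPM on CDA-HFD. For *Tgfbi* the values were 194 (189.6–199) and 199 (194–204) CPM on ND and 564 (559–569.5) and 539.9 (535–545) CPM on CDA-HFD. Each gene was higher on CDA-HFD in both genotypes. Ratios were 3.80 (3.61–3.999) in the control mouse and 3.46 (3.26–3.67) in the Cre mouse for *Fn1*, and 2.90 (2.83–2.98) and 2.71 (2.64–2.79) for *Tgfbi*.

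Among the growth factors, insulin-like growth factor 1 (*Igf1*) is made by Kupffer cells and by macrophages of healing tissue, and platelet-derived growth factor B (*Pdgfb*) makes stellate cells divide. Vascular endothelial growth factor A (*Vegfa*) keeps the sinusoidal endothelium and is induced by low oxygen. *Igf1* was at 628 (619–636) and 676 (666–685) CPM on ND in the control and the Cre mouse and at 231 (228–235) and 247 (244–251) CPM on CDA-HFD. It was the 1 member that was lower on CDA-HFD by at least 2-fold, with ratios of 0.369 (0.361–0.376) and 0.366 (0.359–0.373). *Pdgfb* was slightly lower on CDA-HFD, with 22.4 (20.8–24.2) and 24.0 (22.2–25.9) CPM on ND, 18.9 (18.0–19.8) and 17.6 (16.8–18.5) CPM on CDA-HFD and ratios of 0.842 (0.770–0.920) and 0.734 (0.670–0.805). *Vegfa* was close to the lower end of detection on ND, with 40 and 31 counts in the control and the Cre mouse. Its level was 1.25 (0.892–1.70) and 1.11 (0.757–1.58) CPM on ND and 26.9 (25.8–28.0) and 15.2 (14.4–16.0) CPM on CDA-HFD, with ratios of 21.5 (15.8–30.2) and 13.6 (9.55–20.1). The ND counts of *Vegfa* came from 21 cells of the control mouse and 23 of the Cre mouse, so the size of the ratio rests on few cells.

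Oncostatin M (*Osm*) is a cytokine of the interleukin 6 family that induces tissue inhibitors of metalloproteinases in the liver, and growth differentiation factor 15 (*Gdf15*) is a stress-induced member of the TGF-beta superfamily. *Osm* was at 11.8 (10.7–13.1) and 9.27 (8.17–10.5) CPM on ND in the control and the Cre mouse and at 80.3 (78.4–82.2) and 66.5 (64.8–68.2) CPM on CDA-HFD. The CDA-HFD-fed mice were the higher pair, at ratios of 6.78 (6.12–7.54) and 7.17 (6.33–8.15). *Gdf15* was at 5.31 (4.54–6.17) CPM in the ND-fed control mouse, 7.94 (6.93–9.06) in the ND-fed Cre mouse, 119 (116–121) in the CDA-HFD-fed control mouse and 59.5 (57.9–61.1) in the CDA-HFD-fed Cre mouse. The diet ratio was 22.4 (19.2–26.2) in the control mouse and 7.49 (6.55–8.61) in the Cre mouse. In the ND-fed control mouse 1 cell held 91 of the 170 *Gdf15* counts, 53.5% of them. The 1% of cells with the most *Gdf15* held 77.1% and 75.6% of its counts in the control and the Cre mouse on ND and 37.0% and 46.7% on CDA-HFD.

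**Figure D1:**
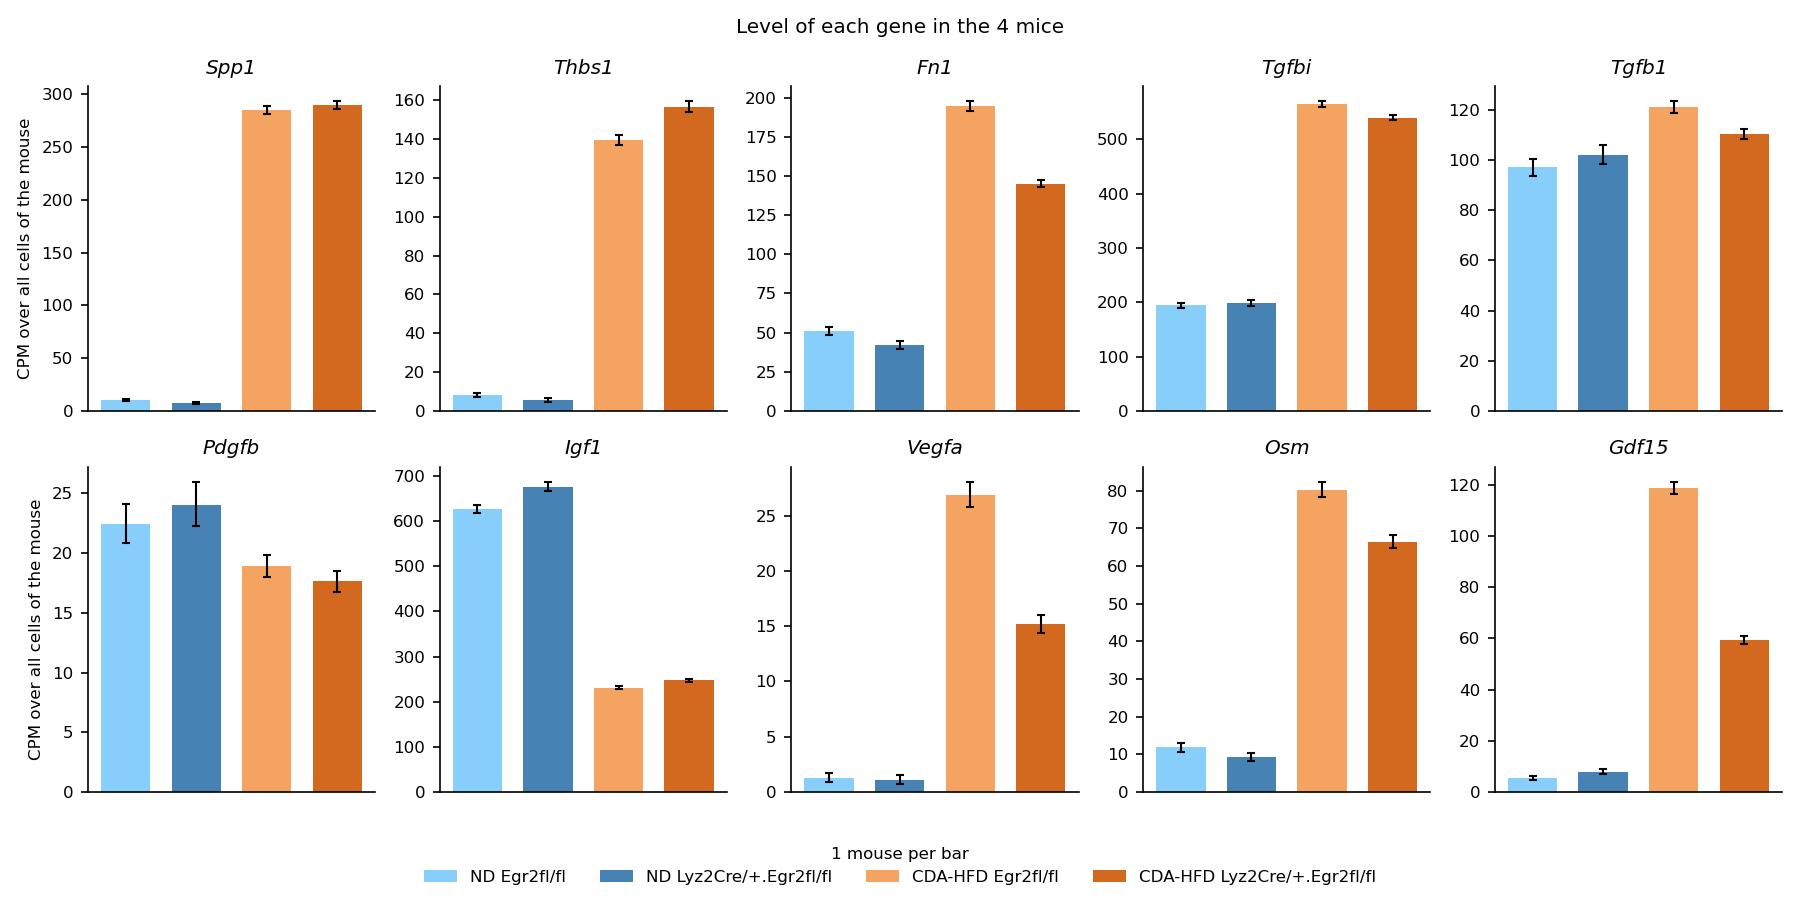
Level of each of the 10 genes in CPM over all cells of each mouse, with exact Poisson 95% intervals as error bars and 1 mouse per bar. *Spp1*, *Thbs1*, *Vegfa*, *Osm* and *Gdf15* were low in both ND-fed mice, and *Igf1* was highest in them.

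In control mice, 7 of the 10 members were higher on CDA-HFD by at least 2-fold and 1 was lower, where 5.21% and 10.5% of the 14078 genes with at least 100 counts over both mice were higher and lower by as much. In Cre mice the numbers were again 7 and 1 of 10, beside 5.30% and 11.0% of 14197 genes. The median log2 ratio of the members was 2.34 in the control mouse and 2.32 in the Cre mouse, and that of all genes −0.14 and −0.15. Scaling by TMM moved the median of all genes up by 0.15 in the control mouse and 0.16 in the Cre mouse and left the number of members past 2-fold at 7 and 1 in either genotype.

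The second question was which cells the counts came from. Neutrophils, monocytes at different stages, resident and recruited macrophages and dendritic cells all bear CD11b and passed the sort. A factor's level in a tissue depends both on how many cells of a kind are present and on how much mRNA each holds. Shares of counts carry exact binomial 95% intervals in parentheses. A source with many or deep cells can hold a large share of any gene. On ND Kupffer cell-like cells held 57.1% of all counts in the control mouse and 64.0% in the Cre mouse. On CDA-HFD hLAM-like cells held 22.8% and 18.1% of all counts, and Ly6C hi monocyte-like cells 17.0% and 14.7%. Cluster 5 held 9.47% and 10.5% there, and neutrophil-like cells 4.64% and 3.77%. Sources with at least 50 cells in a mouse were ordered by CPM, 11 in the CDA-HFD-fed control mouse, 13 in the CDA-HFD-fed Cre mouse, and 10 and 7 on ND. The highest and lowest levels named below are among these, and smaller sources were not ordered.

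On CDA-HFD, *Spp1* was highest in hLAM-like cells, with 850.1 (837–863) CPM in the control mouse and 992 (977–1007) in the Cre mouse. In the control mouse cluster 5 followed at 233 CPM, with an interval apart from both neighbours, and then Ly6C hi monocyte-like, proliferating-like, cluster 3 and monocyte-derived macrophage-like cells between 167 and 146 CPM, each overlapping the next. Interferon-responding-like cells at 109 CPM, neutrophil-like cells at 62.5 and *Cd209a*+ dendritic cell-like cells at 25.7 stood apart below them, and Ly6C lo monocyte-like and mature dendritic cell-like cells were last at 15.5 and 14.4 CPM with overlapping intervals. In the Cre mouse, Ly6C hi monocyte-like cells, cluster 5, cluster 3, endothelial cell-like and proliferating-like cells came next after hLAM-like cells, from 228 to 169 CPM, each overlapping the next. The hLAM-like cells held 67.8% (67.2–68.4) of all *Spp1* counts in the control mouse and 61.9% (61.3–62.5) in the Cre mouse. On ND no ordered source stood out in the control mouse, where all 9 pairs of neighbours overlapped. The highest of them was 24.7 (17.6–33.7) CPM in proliferating-like cells. In the ND-fed Cre mouse the highest level, 52.4 (39.1–68.7) CPM in monocyte-derived macrophage-like cells, came from 52 counts of which 49 were in 1 cell. The few hLAM-like cells on ND, not ordered, had *Spp1* at 280 (196–387) CPM in 4 cells of the control mouse on 36 counts. In 3 cells of the Cre mouse it was at 156 (85.0–261) CPM on 14 counts.

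*Gdf15* on CDA-HFD was a gene of macrophage-like cells. The order began with hLAM-like cells at 323 (315–331) CPM in the control mouse and 189 (183–196) in the Cre mouse, and monocyte-derived macrophage-like cells at 195 (186–203) and 98.7 (93.1–104), with no overlap between neighbours. Proliferating-like cells at 87.7 CPM and cluster 5 at 57.6 followed in the control mouse, again apart from their neighbours, while in the Cre mouse proliferating-like cells at 33.1 CPM overlapped Ly6C lo monocyte-like cells at 32.7. Ly6C hi monocyte-like cells, cluster 3, mature dendritic cell-like and neutrophil-like cells overlapped in the control mouse between 38.1 and 25.6 CPM. *Cd209a*+ dendritic cell-like cells were low in both mice, at 12.9 and 3.63 CPM. Interferon-responding-like cells had no *Gdf15* count in either CDA-HFD-fed mouse, which allows up to 3.59 CPM in the control mouse and 2.87 in the Cre mouse. Of all *Gdf15* counts, hLAM-like cells held 61.9% (61.0–62.9) in the control mouse and 57.6% (56.3–59.0) in the Cre mouse, and monocyte-derived macrophage-like cells 19.6% and 22.0%. The hLAM-like share in the control mouse was 46.5% at resolution 2.0 and 84.2% at resolution 0.5. On ND the highest level among ordered sources was 10.6 CPM in cluster 14 of the control mouse. In the Cre mouse it was 14.1 CPM in monocyte-derived macrophage-like cells, and in either mouse every neighbouring pair overlapped. Of the sources not ordered, 4 hLAM-like cells of the control mouse had 723 (583–885) CPM, with 91 of 93 counts in 1 cell. In the Cre mouse cluster 5 had 133 (57.3–261) CPM, with all 8 counts in 1 cell. Proliferating-like cells there had 29.5 (20.3–41.4) CPM, with 28 of 33 counts in 1 cell.

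*Igf1* followed the macrophages on both diets. On ND it was at 1034 (1019–1049) CPM in Kupffer cell-like cells of the control mouse and 959.8 (945–974) of the Cre mouse, overlapping cluster 14 at 968 and 985 CPM, and Kupffer cell-like cells held 94.1% and 90.9% of its counts. The next sources on ND were lower, proliferating-like and monocyte-derived macrophage-like cells at 167 and 149.6 CPM in the control mouse with overlapping intervals, and monocyte-derived macrophage-like cells at 226 CPM in the Cre mouse. On CDA-HFD monocyte-derived macrophage-like and hLAM-like cells overlapped in the control mouse at 584 (569–599) and 572 (561–582) CPM. In the Cre mouse they did not, at 586 (573–600.2) and 670.3 (658–683) CPM. After these came proliferating-like cells with 276 and 317 CPM. Clusters 5 and 3 followed in the control mouse, at 91.9 (85.4–98.7) and 73.5 (66.1–81.4) CPM. The named monocyte, neutrophil and dendritic cell sources were all below 50 CPM in either mouse. The hLAM-like cells held 56.2% of *Igf1* counts in the control mouse and 49.0% in the Cre mouse. This share depended on how finely cells were clustered, from 33.1% at resolution 2.0 to 87.0% at resolution 0.5 in the control mouse, where it was 56.2% at resolution 1.0.

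*Fn1* was a gene of Ly6C hi monocyte-like cells in all 4 mice. On ND these cells had 809 (759–861) CPM in the control mouse and 795 (742–852) in the Cre mouse, apart from the next source at 125 CPM in monocyte-derived macrophage-like cells and 25.9 CPM in cluster 14. On CDA-HFD they had 659 (646–672) CPM in the control mouse and 542 (529.6–555) in the Cre mouse. Cluster 3, cluster 5 and interferon-responding-like cells followed in the control mouse with overlapping intervals at 200.04, 198 and 194 CPM, and hLAM-like cells stood apart below them at 157. In the Cre mouse the order was interferon-responding-like cells at 249.7 CPM, cluster 3 at 201, cluster 5 at 170.0, cluster 16 at 130.3 and hLAM-like cells at 97.8, with no overlap between neighbours. Monocyte-derived macrophage-like, dendritic and neutrophil-like cells were low in both mice. Of all *Fn1* counts, Ly6C hi monocyte-like cells held 57.4% (56.7–58.2) in the control mouse and 54.8% (54.0–55.7) in the Cre mouse on CDA-HFD, and 59.1% and 70.2% on ND.

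*Thbs1* had its highest level in cluster 5 on CDA-HFD, at 496 (481–512) CPM in the control mouse and 515 (500.3–529) in the Cre mouse. Eosinophil-like cells, too few to be ordered, were far higher, with 4491 (3957–5078) CPM in 11 cells of the control mouse and 3984 (3635–4356) in 20 cells of the Cre mouse, and held 2.15% and 3.41% of the *Thbs1* counts. The sort left out cells with SiglecF and should have removed eosinophils. In the control mouse neutrophil-like cells at 278 CPM and Ly6C hi monocyte-like cells at 208 came next without overlap, then cluster 3 at 98.7 and hLAM-like cells at 96.6 with overlap. In the Cre mouse cluster 16 at 296 CPM and neutrophil-like cells at 289 overlapped, and Ly6C hi monocyte-like cells at 245 stood apart below them. Dendritic cell-like sources were the lowest in both mice. Cluster 5 held 33.7% and 34.4% of *Thbs1* counts and Ly6C hi monocyte-like cells 25.3% and 22.9%. On ND all neighbours overlapped in both mice, and the highest levels were 33.4 (22.7–47.4) CPM in monocyte-derived macrophage-like cells of the control mouse and 37.8 (25.7–53.7) CPM in neutrophil-like cells of the Cre mouse.

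*Tgfbi* was spread over most sources. On CDA-HFD it was highest in cluster 3, at 912 (885–939) CPM in the control mouse and 910.3 (890.0–931) in the Cre mouse, then in cluster 5 at 827 and 848, Ly6C hi monocyte-like cells at 709 and 687 and hLAM-like cells at 683 and 617, with no overlap among these 4. Mature dendritic cell-like cells were lowest, at 89.8 and 79.2 CPM. On ND Ly6C hi monocyte-like cells at 609 and 535 CPM overlapped neutrophil-like cells at 550.0 and 502. *Tgfb1* was the most even of the 10 genes by the ratio of the highest source to the median source on CDA-HFD, 1.53 in the control mouse and 1.54 in the Cre mouse. Ly6C hi monocyte-like cells were highest with 185 (178–192) CPM in the control mouse and 159 (152–166) in the Cre mouse, overlapping Ly6C lo monocyte-like cells in the Cre mouse at 155 CPM but not in the control mouse, where cluster 5 at 149.7 was next. Cluster 5, Ly6C lo monocyte-like, interferon-responding-like, monocyte-derived macrophage-like, cluster 3 and hLAM-like cells of the control mouse overlapped in turn down to 111 CPM. On ND all neighbours overlapped. Kupffer cell-like cells held 61.7% of *Tgfb1* counts in the control mouse and 64.2% in the Cre mouse. These shares stand beside 57.1% and 64.0% of all counts.

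*Osm* was highest in neutrophil-like cells in every mouse, with 359.7 (305–421) and 135 (111–163) CPM in the control and the Cre mouse on ND and 453 (433–475) and 366 (346–387) CPM on CDA-HFD, each apart from the next source. Eosinophil-like cells, not ordered, had *Osm* at 1064 (641–1662) CPM in 3 cells of the ND-fed Cre mouse on 19 counts, and at 176 and 232 CPM on CDA-HFD. The next source on CDA-HFD was cluster 5 at 120.4 CPM in the control mouse, overlapping Ly6C hi monocyte-like cells at 114, and cluster 16 at 144 CPM in the Cre mouse. Interferon-responding-like, macrophage, dendritic and Ly6C lo monocyte-like sources of the control mouse overlapped in turn between 51.5 and 31.1 CPM. Neutrophil-like cells, which have few counts per cell, held 26.2% and 20.8% of *Osm* counts on CDA-HFD, beside 24.0% and 22.7% in Ly6C hi monocyte-like cells. *Vegfa* also had a high level in neutrophil-like cells of the control mouse, 60.7 (53.3–68.9) CPM, overlapping hLAM-like cells at 53.6 (50.4–56.98). In the Cre mouse these were 29.7 (24.2–36.1) and 31.1 (28.5–33.9) CPM, overlapping cluster 5 at 25.1 as well. In the few eosinophil-like cells *Vegfa* was at 123 (49.6–254) CPM in the control mouse on 7 counts and 108 (57.3–184) in the Cre mouse on 13. The hLAM-like cells held 45.4% of *Vegfa* counts in the control mouse and 37.1% in the Cre mouse. On ND *Vegfa* was highest at 11.6 (3.77–27.1) CPM in neutrophil-like cells of the control mouse, all 5 counts of which were in 1 cell, and no neighbours were apart.

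*Pdgfb* showed its highest level on ND, in monocyte-derived macrophage-like cells, with 78.6 (61.6–98.8) CPM in the control mouse and 68.5 (53.2–86.9) in the Cre mouse, apart from the next source in either mouse. Kupffer cell-like cells, at 26.9 and 26.5 CPM, held 68.4% and 70.7% of its counts on ND, beside 57.1% and 64.0% of all counts. On CDA-HFD hLAM-like, Ly6C lo monocyte-like, proliferating-like, *Cd209a*+ dendritic cell-like and monocyte-derived macrophage-like cells of the control mouse lay between 26.4 and 23.5 CPM with overlapping neighbours. In the Cre mouse the highest was 26.6 CPM in endothelial cell-like cells, which the sort should remove, and 11 of 12 pairs of neighbours overlapped. Neutrophil-like cells were the lowest source of *Pdgfb*, with 3.29 (1.75–5.63) CPM in the control mouse and 0 counts in the Cre mouse, which allows up to 0.883 CPM.

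**Figure D2:**
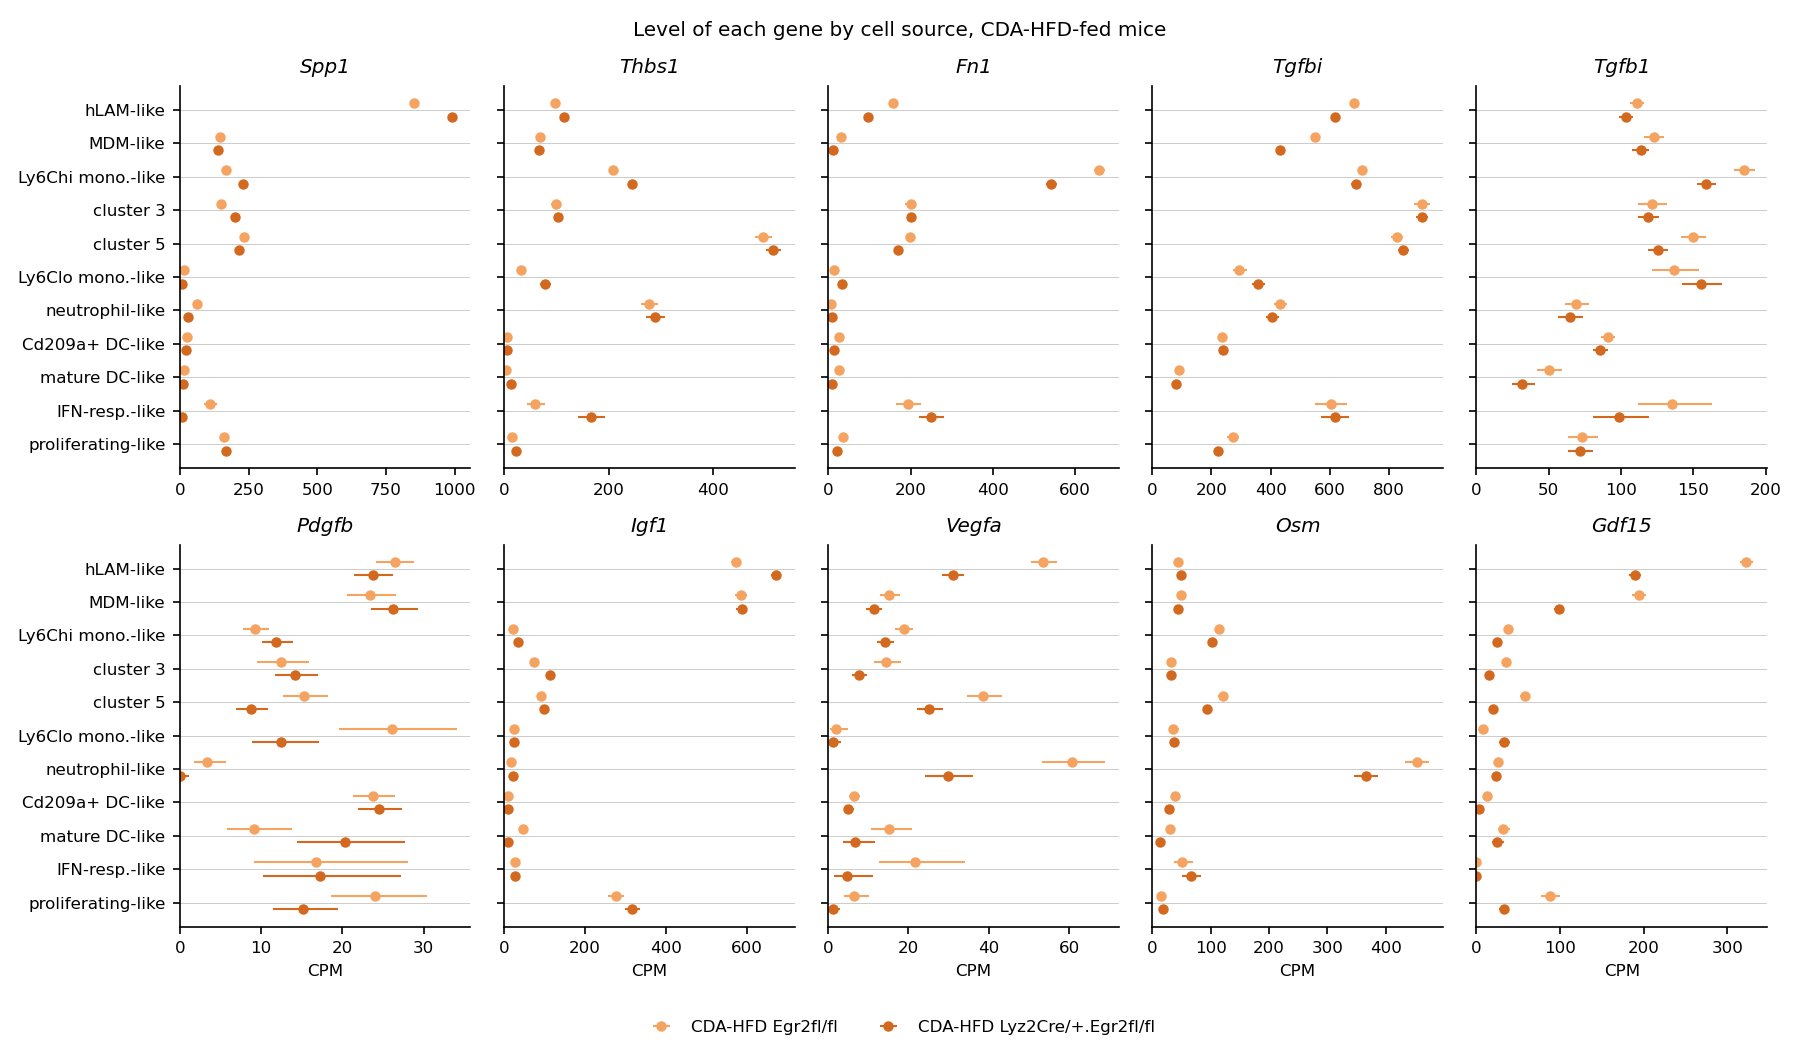
Level of each gene in CPM in the 11 cell sources with at least 50 cells in both CDA-HFD-fed mice, as points with exact Poisson 95% intervals. *Spp1* was high in hLAM-like cells, *Gdf15* and *Igf1* in hLAM-like and monocyte-derived macrophage-like cells, *Fn1* in Ly6C hi monocyte-like cells and *Osm* in neutrophil-like cells.

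**Figure D3:**
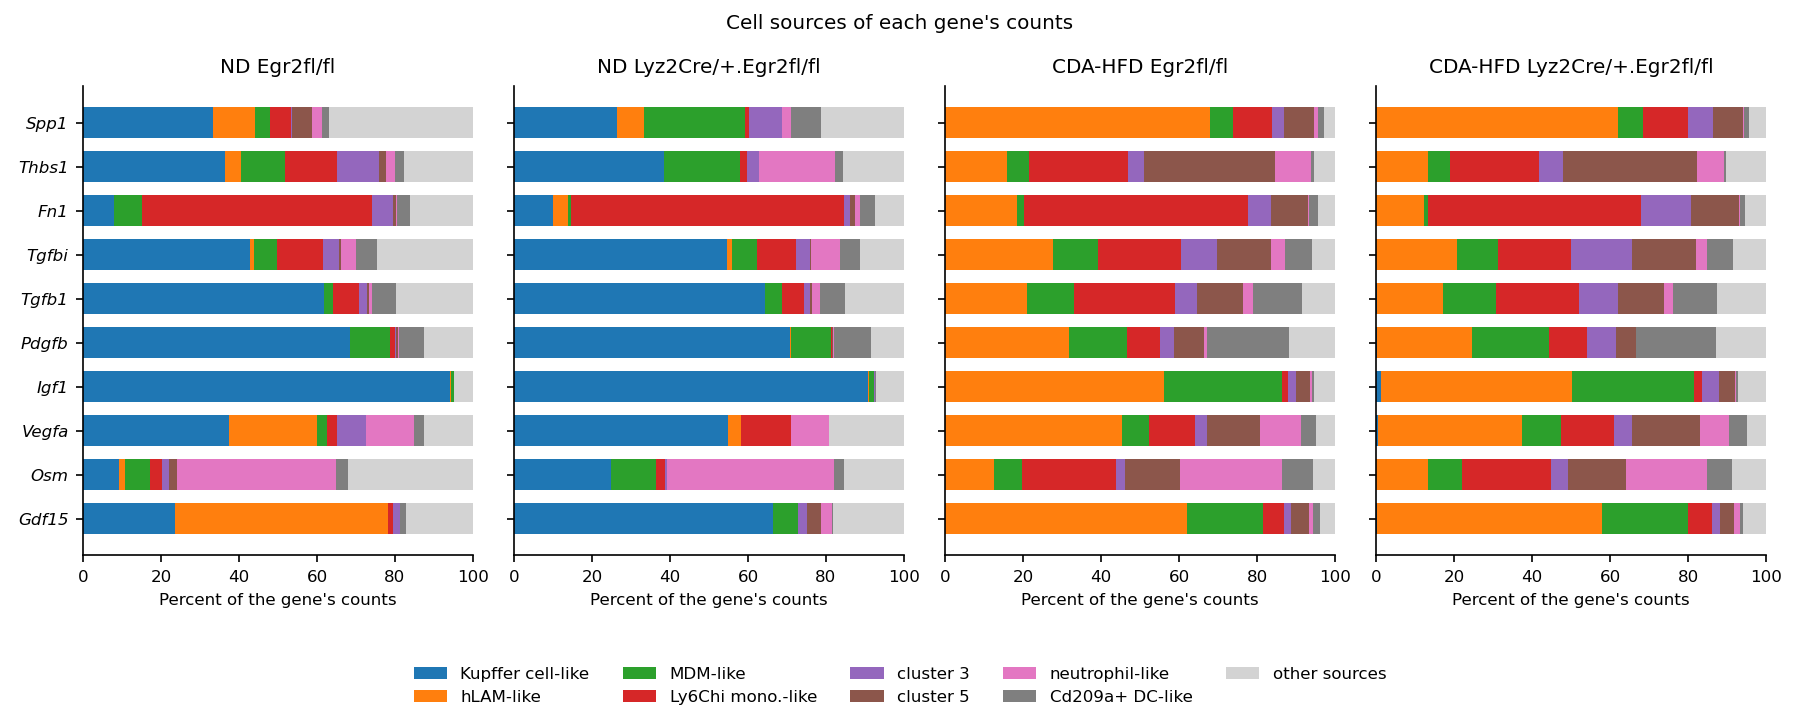
Percent of each gene's counts in each mouse that came from each cell source. Kupffer cell-like cells held most *Igf1* counts on ND, and hLAM-like cells held most *Spp1* and *Gdf15* counts on CDA-HFD at the resolution shown.

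Shares of cells with a count depend on depth and on free RNA, so they were set beside lymphoid cell-like cells, which should lack most of these mRNAs, though T cells make *Tgfb1* themselves. The 114 lymphoid cell-like cells of both CDA-HFD-fed mice had a median of 8043.5 counts. There *Spp1* was seen in 7.89% of cells, and in 3.09% after each cell was thinned to 3000 counts. In hLAM-like cells, with medians of 21723 counts in the control mouse and 19254 in the Cre mouse, *Spp1* was seen in 52.3% and 49.5% of cells, or 36.1% and 34.9% when thinned. *Gdf15* was seen in 45.6% of hLAM-like cells in the control mouse and 31.9% in the Cre mouse, thinned 29.9% and 20.1%, against 2.63% and thinned 0.795% in lymphoid cell-like cells. The same source had *Vegfa* in 28.9% and 16.2% of cells, thinned 11.5% and 6.16%, beside 5.26% and thinned 3.44% in lymphoid cell-like cells. *Fn1* was seen in 74.8% of Ly6C hi monocyte-like cells of the control mouse, median 13026 counts, and 67.1% of the Cre mouse, median 13466.5, or thinned 59.2% and 50.8%, where lymphoid cell-like cells had 10.5% and thinned 5.16%. *Osm* was seen in 35.7% and 33.8% of neutrophil-like cells, medians 4054.5 and 4029.5 counts, thinned 33.2% and 30.6%, against 11.4% and thinned 5.48%. *Tgfbi* and *Tgfb1* were seen in 27.2% and 32.5% of lymphoid cell-like cells, so that a count of either gene does not mark a cell as its source. No cell was shallower than 3000 counts.

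The third comparison asked whether the diet difference was also present within sources found on both diets. A recruited monocyte can alter its mRNA when it reaches an injured liver, and the mixture of cells can also shift. Within a source the second of these is reduced but not removed, since a class may hold different clusters. In Ly6C hi monocyte-like cells, cluster 4 held nearly all cells on ND, 91 of 97 in the control mouse and 76 of 81 in the Cre mouse, while on CDA-HFD cluster 4 held 631 and 508 cells and cluster 9 held 441 and 444. Neutrophil-like cells were mostly cluster 8 on ND, 100 and 176 cells, and clusters 7 and 8 on CDA-HFD, with 555 and 422 cells in cluster 7 and 351 and 299 in cluster 8. Cluster 21 of this class, led by *Ngp*, *Camp* and *Ltf*, had 6 and 25 cells on CDA-HFD with a median of 12514 counts, against 4012 and 3987.5 in clusters 7 and 8. For control mice 7 sources had at least 50 cells in both mice, and 24 of 48 tested pairs of member and source were higher on CDA-HFD by at least 2-fold and 2 lower, beside 7.22% and 4.99% of 42087 pairs over all genes. For Cre mice, with 5 such sources, 22 of 39 pairs were higher and 1 lower, beside 7.23% and 4.13% of 33324. The 100 counts needed are summed over both mice, so a pair with few counts on ND could be tested through its CDA-HFD counts.

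Ly6C hi monocyte-like cells, mostly cluster 4 on ND and clusters 4 and 9 on CDA-HFD, had more *Spp1* on CDA-HFD, 15.0 against 167 CPM in the control mouse at a ratio of 11.2 (7.05–18.9) on 18 ND counts. With Cre the ratio of 118 (32.6–974) rested on 2 counts on ND. By cluster, *Spp1* on CDA-HFD was at 10.6 (8.47–13.04) CPM in cluster 4 and 375 (360.0–391) in cluster 9 of the control mouse, and at 43.8 (39.0–49.0) and 429 (413–446) in the Cre mouse, so that the higher level lay in cluster 9. *Thbs1* in Ly6C hi monocyte-like cells was at a ratio of 6.92 (4.99–9.90) in the control mouse and 84.2 (28.8–409) in the Cre mouse, the latter on 3 counts on ND. In cluster 4 alone *Thbs1* was at 31.8 and 3.11 CPM on ND and 209 and 233 on CDA-HFD. *Osm* was higher too, from 10 to 114 CPM in the control mouse, a ratio of 11.4 (6.49–22.0), and from 5.81 to 103 CPM in the Cre mouse, a ratio of 17.7 (8.12–48.4) on 6 ND counts. *Gdf15* had a ratio of 22.9 (6.30–189) in the control mouse on 2 counts on ND, and was at least 8.58-fold higher in the Cre mouse, where ND cells had none. *Fn1* was lower by less than 2-fold, at 0.815 (0.763–0.872) in the control mouse and 0.681 (0.634–0.733) in the Cre mouse. In cluster 4 alone its intervals overlapped, with 854 (801–909) and 815 (759–874) CPM on ND and 837 (817–857) and 787 (767–809) CPM on CDA-HFD.

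Monocyte-derived macrophage-like cells were a single cluster on both diets, named from 9 of 16 markers raised with 1 among its leading genes. Their median total was 9183 and 11246.5 counts on ND in the control and the Cre mouse, and 24360.5 and 22379 on CDA-HFD. The part of this depth in the ratios was not tested. In these cells *Igf1* was higher on CDA-HFD, with 149.6 against 584 CPM in the control mouse and 226 against 586 CPM in the Cre mouse. The ratios of 3.90 (3.30–4.65) and 2.60 (2.27–2.98) stand beside an *Igf1* level over all cells that was lower on CDA-HFD. Hepatocyte markers, genes of another source of *Igf1*, were also higher in this class on CDA-HFD. They went from 431 to 620 CPM in the control mouse and from 499 to 638 CPM in the Cre mouse. Over all cells, most of the sum of these markers was *Trf*, which macrophages also make. The part of hepatocyte RNA in the *Igf1* ratios was not tested. *Pdgfb* was lower in the monocyte-derived macrophage-like cells, at a ratio of 0.299 (0.229–0.393) in the control mouse and 0.384 (0.294–0.506) in the Cre mouse. Endothelial cell markers, genes of another source of *Pdgfb*, were also lower in this class on CDA-HFD, from 269 to 28.2 CPM in the control mouse and from 147 to 38.7 CPM in the Cre mouse, and their part in the *Pdgfb* ratio was not tested. *Spp1* was at 10.4 (6.07–19.6) in the control mouse and 2.67 (2.03–3.59) in the Cre mouse, where 11 of 13 and 49 of 52 ND counts were in 1 cell. *Thbs1* was at 2.04 (1.43–3.03) and 2.17 (1.51–3.21), with 20 and 21 of 31 ND counts in 1 cell. *Gdf15* was at least 60.2-fold higher in the control mouse, from 0 counts on ND, and at 6.99 (4.15–12.8) in the Cre mouse. The *Fn1* ratio of 0.243 (0.196–0.303) in the control mouse was decided by 1 ND cell with 98 of the 116 counts.

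Neutrophil-like cells, mostly cluster 8 on ND and clusters 7 and 8 on CDA-HFD, had more *Thbs1* on CDA-HFD, 13.9 against 278 CPM in the control mouse and 37.8 against 289 CPM in the Cre mouse. These made ratios of 19.9 (9.13–54.5), on 6 ND counts, and 7.64 (5.35–11.3). *Osm* in neutrophil-like cells was at 1.26 (1.07–1.49) in the control mouse and 2.70 (2.22–3.31) in the Cre mouse, where the ND level was the lower of the ND-fed mice. *Vegfa* was at 5.24 (2.21–16.3) in the control mouse, with all 5 ND counts in 1 cell, and 8.13 (2.70–40.1) in the Cre mouse. On CDA-HFD both were uneven between the clusters, *Vegfa* with 81.0 CPM in cluster 7 and 33.5 in cluster 8 of the control mouse, and *Osm* with 345 and 642. *Cd209a*+ dendritic cell-like cells had higher *Osm* at 6.83 (3.88–13.3) and 8.67 (3.95–23.8), and higher *Spp1* at 9.16 (4.17–25.1) and 2.53 (1.51–4.59). Ly6C lo monocyte-like cells had *Tgfbi* at 2.97 (2.37–3.78) in the control mouse and 1.53 (1.27–1.86) in the Cre mouse. Between the Cre mice *Thbs1* there was at 6.81 (3.08–18.7) and *Fn1* at 2.17 (1.06–5.16), on 6 and 8 ND counts. In the same cells *Osm* and *Gdf15* had 0 ND counts and were higher by at least 6.39 and 5.67-fold. Of the 102 *Gdf15* counts on CDA-HFD, 1 cell held 46. In proliferating-like cells of the control mouse, *Spp1* was at 6.46 (4.65–9.20) with 240 of 445 CDA-HFD counts in 1 cell, *Gdf15* at 139 (24.6–5497) on 1 ND count, and *Fn1* at 5.04 (2.70–10.4) with 83 of 98 CDA-HFD counts in 1 cell. Interferon-responding-like cells of the control mouse had *Fn1* at 2.71 (2.19–3.34), and *Spp1* at 4.79 (3.46–6.67), of which 1 cell held 59 of 67 counts on ND and another 55 of 91 on CDA-HFD.

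When the levels in the 7 shared sources of the control mouse were weighted by the makeup of the ND-fed mouse, the diet ratio was 6.16 for *Spp1* and 5.75 for *Thbs1*. *Fn1* was then at 1.10, *Tgfbi* at 1.53 and *Osm* at 2.20, and *Igf1* at 2.27, above 1. Weighted by the makeup of the CDA-HFD-fed mouse, *Spp1* was at 8.53, *Thbs1* at 5.63, *Tgfbi* at 1.25, *Osm* at 2.36 and *Igf1* at 3.33, while *Fn1*, at 0.781, fell on the other side of 1. *Pdgfb* did so too, at 1.11 with the ND makeup and 0.660 with that on CDA-HFD, and *Tgfb1* was at 1.31 and 1.16. These sources held 62.8% of the cells on CDA-HFD and 43.2% on ND, and left out Kupffer cell-like and hLAM-like cells. In the 5 shared sources of the Cre mouse, 54.5% and 33.7% of cells, the weighted ratio was 5.86 for *Spp1*, 8.20 for *Thbs1*, 0.690 for *Fn1*, 2.41 for *Igf1*, 1.20 for *Tgfbi*, 0.930 for *Tgfb1* and 0.598 for *Pdgfb* at the ND makeup. At the other it was 6.45, 8.93, 0.688, 2.50, 1.25, 0.946 and 0.592 in that order. *Tgfb1* was thus below 1 in the Cre mouse and above 1 in the control mouse. *Gdf15* and *Vegfa*, and *Osm* in the Cre mouse, had 0 ND counts in some of these sources and are left out here.

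The comparison of genotype on CDA-HFD asked how the factors differed between a mouse with and a mouse without Cre when the liver was injured. *Egr2* is an early growth response factor with zinc fingers that bind GC-rich DNA. The study deals with its place in the step from monocyte to macrophage in this liver. Macrophages that lack such a factor may differ in number, in kind or in what they release, and the comparison covers all of these at once. Over all cells, *Gdf15* was at 119 CPM in the control mouse and 59.5 in the Cre mouse, and *Vegfa* at 26.9 and 15.2 CPM. These were the lowest ratios of the 10, at 0.501 (0.485–0.518) and 0.564 (0.527–0.604), and the *Gdf15* ratio lay so close to 0.5 that it passed 2-fold with TMM scaling, at 0.492. *Fn1*, at 195 and 145 CPM, had a ratio of 0.746 (0.729–0.764), and *Osm*, at 80.3 and 66.5 CPM, a ratio of 0.828 (0.799–0.857). *Tgfb1* and *Tgfbi* were lower in the Cre mouse by less, at 0.912 (0.887–0.938) and 0.956 (0.944–0.969), and the interval of *Pdgfb*, 0.934 (0.871–1.00), reached 1. *Thbs1* was higher in the Cre mouse, 139 against 157 CPM, at a ratio of 1.12 (1.10–1.15), as was *Igf1* at 1.07 (1.05–1.09). *Spp1* did not differ beyond counting error, at 1.02 (0.998–1.03), and its ratio fell on the other side of 1 with TMM scaling, at 0.996.

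None of the 10 members was apart by 2-fold in either direction, where 1.05% and 0.382% of 14927 genes were higher and lower. Their median log2 ratio was −0.12, and that of all genes 0.03. Within the 11 sources with at least 50 cells in both mice, 4 of 94 pairs of member and source were higher in the Cre mouse by at least 2-fold and 9 lower, beside 0.723% and 0.618% of 80726 pairs over all genes.

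*Gdf15* had 5 of these 13 pairs. In hLAM-like cells, its main source, it was at 323 (315–331) CPM in the control mouse and 189 (183–196) in the Cre mouse, a ratio of 0.587 (0.562–0.613) that stayed short of 2-fold. In monocyte-derived macrophage-like cells the ratio was 0.507 (0.472–0.545), and in Ly6C hi monocyte-like cells 0.654 (0.569–0.751). The level was lower in the Cre mouse past 2-fold in cluster 5, 57.6 against 19.9 CPM and 0.346 (0.291–0.411), and in cluster 3, 35.6 against 14.4 CPM and 0.405 (0.319–0.514). The same held for *Cd209a*+ dendritic cell-like cells, with 12.9 against 3.63 CPM and a ratio of 0.282 (0.201–0.389). Proliferating-like cells had 0.377 (0.302–0.469), but 1.13 without the 5% of each mouse's cells with the most counts. Ly6C lo monocyte-like cells went the other way, from 7.74 to 32.7 CPM at 4.22 (2.48–7.67), where 1 Cre cell held 46 of 102 counts, and the ratio was 0.8003 when each cell was gated by its own markers. Weighted by the makeup of the control mouse, the *Gdf15* ratio over the 11 sources was 0.561, and by that of the Cre mouse 0.553.

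*Vegfa* was lower in the Cre mouse in hLAM-like cells, 53.6 against 31.1 CPM at 0.580 (0.521–0.646), and in neutrophil-like cells, 60.7 against 29.7 CPM at 0.489 (0.384–0.620). The neutrophil-like value was past 2-fold, yet it was 0.569 with each cell gated by its own markers and 0.504 at resolution 0.5. In cluster 7 *Vegfa* was at 81.0 and 38.2 CPM, and in cluster 8 at 33.5 and 15.8. *Fn1* was lower in the Cre mouse in hLAM-like cells, at 0.624 (0.586–0.663), and in Ly6C hi monocyte-like cells, at 0.822 (0.798–0.848), where cluster 4 had 837 and 787 CPM and cluster 9 had 424 and 275. Past 2-fold was *Fn1* in monocyte-derived macrophage-like cells, 30.3 against 10.7 CPM and 0.354 (0.285–0.436), or 0.540 with gating. In Ly6C lo monocyte-like cells *Fn1* was higher in the Cre mouse, 2.22 (1.48–3.43), and 0.794 with gating.

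*Spp1* in hLAM-like cells was higher in the Cre mouse by 1.17 (1.14–1.19)-fold, and *Igf1* and *Thbs1* there had ratios of 1.17 (1.14–1.20) and 1.18 (1.11–1.26). Platelet markers in these cells summed to 1.91 CPM in the control mouse and 10.4 CPM in the Cre mouse, and their part in these ratios was not tested. Cluster 4 of the Ly6C hi monocyte-like cells had *Spp1* at 10.6 (8.47–13.04) CPM in the control mouse and 43.8 (39.0–49.0) in the Cre mouse, and cluster 9 at 375 (360.0–391) and 429 (413–446), so the class was at 1.36 (1.29–1.44). In neutrophil-like cells the *Spp1* ratio of 0.461 (0.361–0.585) rested on 1 control cell with 125 of 247 counts, and it was 0.976 without the 1% of cells with the most *Spp1*. *Thbs1* was higher in the Cre mouse in Ly6C lo monocyte-like cells, 32.4 against 78.5 CPM at 2.42 (1.84–3.22), and 1.18 with gating. Interferon-responding-like cells had *Thbs1* at 2.77 (2.01–3.87), with 65 of 173 Cre counts in 1 cell, and 0.734 with gating. Mature dendritic cell-like cells had *Igf1* at 0.206 (0.118–0.340), with 50 of 114 control counts in 1 cell, and *Osm* at 0.435 (0.268–0.686), or 0.557 with gating. In neutrophil-like cells, the highest source of *Osm*, its ratio was 0.807 (0.7502–0.868). *Tgfbi*, *Tgfb1* and *Pdgfb* were within 2-fold in every source tested.

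**Figure D4:**
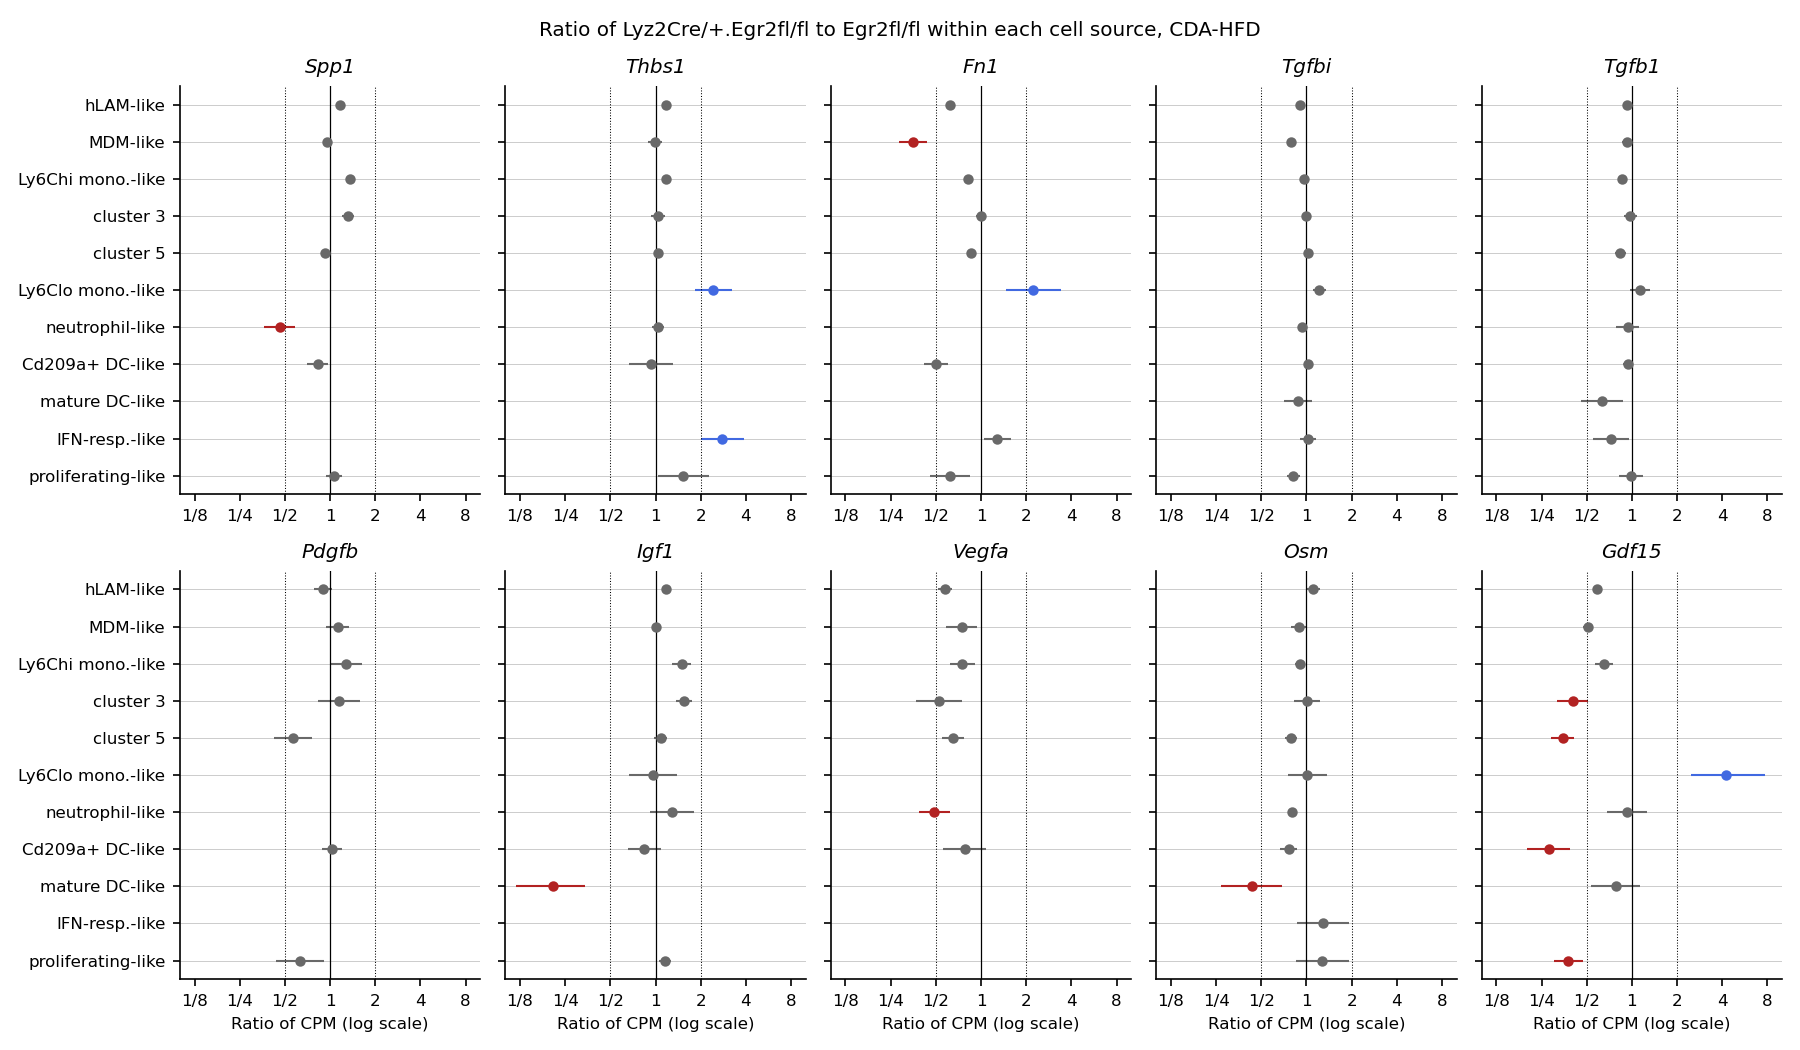
Ratio of CPM of the Cre mouse to the control mouse on CDA-HFD in each cell source with at least 50 cells in both and at least 100 counts, on a log axis with exact binomial 95% intervals. Dotted lines mark 2-fold, and blue and red points lie beyond it, among them 5 of *Gdf15*.

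On ND the comparison of genotype asked about the liver before injury, where Kupffer cell-like cells were the largest source. Kupffer cells arise before birth, maintain themselves, and clear particles and dying cells from the blood. *Thbs1* was at 8.43 CPM in the control mouse and 5.71 in the Cre mouse, *Spp1* at 10.5 and 7.22, and *Osm* at 11.8 and 9.27. These 3 were lower in the Cre mouse, at 0.678 (0.553–0.827), 0.688 (0.575–0.822) and 0.783 (0.666–0.920), as was *Fn1* at 0.820 (0.760–0.885). *Igf1* was at 1.08 (1.06–1.10). The intervals of *Tgfb1*, *Tgfbi* and *Pdgfb* held 1, with ratios of 1.05 (0.998–1.11), 1.02 (0.987–1.06) and 1.07 (0.962–1.19), and *Vegfa* had too few counts for the comparison, 71 over both mice. *Gdf15* was higher in the Cre mouse at 1.496 (1.22–1.84), and the ratio was 2.65 when at least 90% of a cell's hashtag counts were its own and 2.61 without the 5% of each mouse's cells with the most counts. The control cell with 91 of 170 counts was 1 of 4 hLAM-like cells, and over the 7 sources with at least 50 cells in both mice, which leave it out, the ratio was 3.21. None of the 9 members tested was apart by 2-fold as reported, where 1.57% and 0.731% of 12723 genes were higher and lower. Their median log2 ratio was 0.03, beside 0.04 over all genes.

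Within sources on ND, 2 of 26 pairs of member and source were higher in the Cre mouse by at least 2-fold and 3 lower, beside 1.04% and 0.894% of 26724 pairs over all genes. *Gdf15* in Kupffer cell-like cells was at 2.19 (1.56–2.98) CPM in the control mouse and 8.25 (6.97–9.70) in the Cre mouse, a ratio of 3.77 (2.64–5.50). The share of these cells with a *Gdf15* count was alike, 4.68% or 32 cells and 4.77% or 34 cells, and the ratio came from more counts in such cells, at most 5 in a control cell and 21 in a Cre cell. In the same cells *Spp1* had 0.486 (0.344–0.679), where 1 control cell held 48 of 112 counts, *Igf1* had 0.928 (0.909–0.948) and *Tgfbi* 1.16 (1.10–1.23). *Osm* in neutrophil-like cells was at 359.7 CPM in the control mouse and 135 in the Cre mouse, a ratio of 0.376 (0.292–0.483). Stellate cell and fibroblast markers in neutrophil-like cells were also lower in the Cre mouse, 216 against 111 CPM. Their part in the *Osm* ratio was not tested. Ly6C lo monocyte-like cells had *Tgfbi* at 99.1 and 234 CPM, 2.37 (1.78–3.16). The ratio of *Fn1* in monocyte-derived macrophage-like cells, 0.0565 (0.0222–0.120), was decided by the control cell with 98 of 116 counts named above.

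Genes that act with the members were described from 9 lists of 117 genes. Over all genes, the shares higher and lower by at least 2-fold were 5.21% and 10.5% for diet in the control mouse, with a median log2 ratio of −0.14, and 1.05% and 0.382% for genotype on CDA-HFD. TGF-beta is held latent by binding proteins and released by integrins and proteases, and *Tgfb1* mRNA alone does not show how much is active. Of 18 tested genes of TGF-beta activation and response, 3 were higher on CDA-HFD in the control mouse by at least 2-fold and 1 lower, with a median log2 ratio of 0.29. Among the higher were *Ltbp3*, 0.718 against 7.59 CPM, and *Lrrc32*, and lower was *Ltbp4* at 0.0960 (0.0580–0.153). Receptors of osteopontin, thrombospondin and fibronectin had 4 of 13 higher and 2 lower, median −0.28, with *Cd36* at 2.69 (2.60–2.79) and *Sdc3* at 0.166 (0.163–0.170). Other matrix and matricellular genes had 2 of 6 higher and 1 lower, median 0.39, with *Lgals3* at 2.25 (2.22–2.28) and *Sparc* at 0.412 (0.372–0.456). Of the PDGF family 0 of 2 were higher and *Pdgfc* was lower at 0.0896 (0.0710–0.112), median −2.21. The IGF axis, which sets how far *Igf1* acts, had 3 of 7 higher and 1 lower, median 0.18, with *Irs2* at 3.58 (2.96–4.36) and *Igfbp7* at 0.267 (0.243–0.294).

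The oncostatin M and interleukin 6 family had 3 of 10 higher and 1 lower, median 0.04, with *Socs3* at 3.25 (2.98–3.56) and *Il6* at 0.212 (0.182–0.247). Genes of VEGF signaling and hypoxia had 2 of 12 higher and 5 lower, median −0.18, among them *Egln3* at 3.66 (2.53–5.48) and the endothelial receptor *Kdr* at 0.231 (0.198–0.270). The integrated stress response, a program of protein stress under which *Gdf15* is induced, had 4 of 8 higher and 0 lower, median 0.98, with *Atf3* at 98.9 CPM on ND and 1045 on CDA-HFD. Other growth factors and repair genes had 5 of 12 higher and 3 lower, median 0.82, with *Csf1* at 7.53 (6.61–8.61), *Tnf* at 3.46 (3.14–3.82) and *Grn* at 0.486 (0.478–0.494). Between genotypes on CDA-HFD, 6 listed genes were higher in the Cre mouse by at least 2-fold and 2 lower. Lower were *Sdc1*, 13.05 against 5.41 CPM, and *Lrrc32* at 0.435 (0.351–0.536). Higher were *Igfbp7*, *Sparc*, *Kdr* and *Epas1*, with ratios from 2.00 to 2.32, and *Ccn1*, 0.340 against 1.19 CPM, and *Ccn2*, 0.352 against 0.954 CPM. List medians in that comparison lay between −0.26, for the integrated stress response, and 0.12, beside 0.03 over all genes.

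Markers of cells that the sort should remove were also present, and their part in the results was not tested. Platelets carry *Thbs1*, *Tgfb1*, *Pdgfb* and *Igf1* products, and 5 of 7 platelet markers were in the matrix and summed to 0.718, 1.19, 1.41 and 2.91 CPM in the ND-fed control and Cre and the CDA-HFD-fed control and Cre mice. *Ppbp*, the most abundant on CDA-HFD, was at 0 in the ND-fed control mouse and 1.76 CPM in the CDA-HFD-fed Cre mouse. Stellate cell and fibroblast markers, 9 of 9 detected in each mouse, summed to 13.7, 20.9, 16.0 and 21.1 CPM in the same order, led by *Acta2* or *Dcn*. Within neutrophil-like cells they summed to 216, 111, 114 and 138 CPM. Endothelial cells make *Thbs1*, *Fn1*, *Pdgfb* and *Tgfb1*, and their 7 markers, all detected, summed to 295, 455, 40.4 and 75.0 CPM, led by *Dnase1l3* or *Clec4g*. *Sparc*, *Igfbp7*, *Kdr* and *Epas1* above are genes of such cells. Hepatocytes are the chief source of *Igf1* and *Fn1* in the body. Their markers, 8 of 9 in the matrix, summed to 615, 1000.2, 295 and 274 CPM, most of it *Trf*, which macrophages also make, and *Alb* was at 0 in the ND-fed control mouse. Cholangiocyte markers, led by *Epcam*, summed to at most 8.62 CPM in any mouse, with *Krt19* at 0 in 3 of the 4. Erythroid markers summed to 279.7 and 209 CPM on ND, all 5 were at 0 in the CDA-HFD-fed control mouse, and they reached 1.20 CPM in the CDA-HFD-fed Cre mouse. T and NK cell markers, 9 of 9 and led by *Ccl5*, summed to 745, 314, 267 and 242 CPM, and B cell markers, 7 of 7 and led by *Igkc* or *Ighm*, to 645, 1792, 88.5 and 124 CPM. Basophil and eosinophil markers summed to at most 3.16 and 18.4 CPM.

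As a further description of source, each member was correlated with the other genes over 41 points, each a source in 1 mouse with at least 50 cells. The points share 4 mice, 1 library and differences in depth, so they are not independent, and 11841 genes were searched for each member. The closest genes, by Pearson's r of log2(CPM + 1), were *Rai14* (0.784), *Angptl4* (0.772) and *Gpnmb* (0.771) for *Spp1*, and *Lonrf3* (0.754), *Gla* (0.747) and *Gpnmb* (0.739) for *Gdf15*. For *Thbs1* they were *Cd14* (0.831), *Sertad1* (0.797) and *Tlr2* (0.786), and for *Osm* *Junb* (0.908), *Ccrl2* (0.896) and *Zfp36* (0.887). *Fn1* went with the monocyte genes *Vcan* (0.872), *F13a1* (0.868) and *Gas7* (0.817), and *Igf1* with *Snx24* (0.939), the macrophage receptor gene *Mertk* (0.934) and *Tmem37* (0.923). The genes closest to *Vegfa* were *Rilpl2* (0.831), *Gna13* (0.796) and *Gadd45b* (0.788). *Tgfbi* was closest to *Ethe1* (0.813), *Tlr2* (0.774) and *Thbs1* (0.772), *Tgfb1* to *Glud1* (0.824), *Clec4a1* (0.814) and *Lyz1* (0.809), and *Pdgfb* to *Smad1* (0.771), *Msl3l2* (0.771) and *Gpr155* (0.770). Among the members themselves, *Thbs1* with *Tgfbi* at 0.772, *Vegfa* with *Osm* at 0.764 and *Thbs1* with *Osm* at 0.727 were the highest pairs, and *Pdgfb* with *Osm* at −0.419 the lowest.

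In the GRCm38 annotation, *Spp1* lies on chr5:104435118-104441050 (+), *Thbs1* on chr2:118111876-118127133 (+), *Fn1* on chr1:71585520-71653200 (−), *Tgfbi* on chr13:56609523-56639562 (+) and *Tgfb1* on chr7:25687002-25705077 (+). *Pdgfb* lies on chr15:79995874-80014977 (−), *Igf1* on chr10:87858265-87937042 (+), *Vegfa* on chr17:46016993-46032369 (−), *Osm* on chr11:4236420-4241026 (+) and *Gdf15* on chr8:70629393-70632456 (−). *Fn1* overlaps the antisense gene *Apol7d*, *Pdgfb* the antisense gene *Gm41361* and *Igf1* the antisense gene *Igf1os*. Each of these was below 1 CPM in every mouse, with *Igf1os* at most 0.905 CPM. Whether counting used strand is not stated, so counts of these genes and their antisense partners cannot be told apart. *Spp1*, *Thbs1* and *Pdgfb* also overlap genes that are not in the matrix, *Gm42793*, *Gm29233* and *Mir7213*.

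EGR proteins bind a GC-rich site, here written GCGNGGGCG and searched on both strands in windows of 300 bases at annotated promoters. Of 32851 such windows of all genes, 5.55% held a match. Windows were annotated for 6 of the 10 members, not for *Thbs1*, *Fn1*, *Pdgfb* and *Osm*, and those of *Tgfb1* and *Tgfbi* held 1 match each. The windows of *Spp1*, *Igf1*, *Vegfa* and *Gdf15* held none. The AP-1 site TGANTCA matched in the window of *Igf1*, beside 7.81% of all windows, and the stress response site TGATGNAA in no member's window, beside 3.97%. A match describes the sequence and says nothing about binding. The windows with an EGR match, from the RefSeq annotation of GRCm38.p6, lie at chr7:25686752-25687051 (+) for *Tgfb1*, spanning its annotated start, and at chr13:56609336-56609635 (+) for *Tgfbi*, likewise, with the match in capitals.
Tgfb1: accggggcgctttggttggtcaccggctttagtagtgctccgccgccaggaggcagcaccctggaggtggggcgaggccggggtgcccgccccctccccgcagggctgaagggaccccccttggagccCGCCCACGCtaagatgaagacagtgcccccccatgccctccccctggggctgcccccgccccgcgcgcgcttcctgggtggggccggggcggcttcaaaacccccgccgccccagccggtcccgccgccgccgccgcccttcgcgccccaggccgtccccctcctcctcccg
Tgfbi: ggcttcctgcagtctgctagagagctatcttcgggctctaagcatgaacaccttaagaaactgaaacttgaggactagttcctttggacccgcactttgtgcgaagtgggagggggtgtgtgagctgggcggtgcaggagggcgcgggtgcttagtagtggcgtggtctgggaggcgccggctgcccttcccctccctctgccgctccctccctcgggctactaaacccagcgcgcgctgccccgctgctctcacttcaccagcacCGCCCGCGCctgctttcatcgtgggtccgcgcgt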

How the data were processed

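The counts per gene and barcode were deposited by the authors, who trimmed the reads, mapped them to GRCm38-101 with the TAS-Seq pipeline for BD Rhapsody, kept barcodes and assigned them to mice by hashtag, and who used Seurat 4.1.1 in R 4.2.1 for later steps. The text does not say if reads or molecules were counted, and the label of the fourth mouse's hashtag is written differently in places. The matrix held 16786 barcodes. The 1392 that the authors named doublets (8.29%) were left out, no further doublet caller was run, and 15384 cells with at most 25% mitochondrial counts were kept. The deposited hashtag counts served to check the assignment and for 1 alternative, and the 7 other hashtag columns played no part. For 34 genes, none a member, the lowest positive value was 5 or more.

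Cells were clustered in Seurat 5.3.0 (R 4.3.3) with 5054 variable genes less the 7 members among them, 57 principal components and resolution 1.0, which gave 23 clusters. Marker lists of 23 classes served for naming. The candidate was the class best represented in the 10 genes leading a cluster, by 1 marker or more. It was accepted with 3 or more markers raised and no other class having a larger raised share, and 19 sources resulted. Counts were summed per mouse and source and divided by their total (Python 3.11.15, numpy 2.4.6, scipy 1.17.1, pandas 2.3.3), and figures were drawn with matplotlib 3.10.9. A gene was called higher or lower at a ratio of at least 2 or at most 0.5 with at least 100 counts over both mice, and a rule of size stood in place of a test. Against 0 counts a fold is a lower bound taken from a floor of 3 counts in that source and mouse. The calculation of the ratios was checked on simulated Poisson counts with known changes. Those counts held no spread between cells or mice, so the check covers the calculation only.

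The members and the gene lists were chosen with earlier results of these data known. All 10 members are described, with the 3 closest genes of each. From each list at most 3 genes past 2-fold per direction were eligible to be named, those with the most counts, and 1 such gene is not reported here. Alternatives were TMM factors from edgeR 4.0.16, the mean of CPM over cells, library sizes without the 50 genes with the most counts, at most 10% mitochondrial counts, at least 90% of a cell's own hashtag, other minimum counts and folds, resolutions 0.5 and 2.0, clustering with the members, gating each cell by its own markers, and leaving out the 1% of cells with the most counts of a gene.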

Additional observations from a re-analysis of the deposited data

Results flagged for a closer look

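For *Thbs1* and *Gdf15* the ratio of the Cre mouse to the control mouse lay on different sides of 1 on the 2 diets, with counting intervals that left out 1 on either diet. *Thbs1* was at 0.678 on ND and 1.12 on CDA-HFD, and *Gdf15* at 1.496 on ND and 0.501 on CDA-HFD. Each value rests on 1 mouse per group, and the difference was not tested.

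For *Fn1* and *Gdf15* on CDA-HFD, the same ratio was past 2-fold upward in 1 source and downward in another. *Fn1* was at 2.22 in Ly6C lo monocyte-like cells and 0.354 in monocyte-derived macrophage-like cells, and the difference was not tested. With each cell gated by its own markers the former was 0.794 and the latter 0.540. *Gdf15* was at 4.22 in Ly6C lo monocyte-like cells, against 0.282 in *Cd209a*+ dendritic cell-like cells, 0.377 in proliferating-like cells, 0.405 in cluster 3 and 0.346 in cluster 5. This difference was not tested either. In the Ly6C lo monocyte-like cells of the Cre mouse 1 cell held 46 of 102 *Gdf15* counts, and the ratio was 0.8003 with gating. In proliferating-like cells the ratio was 1.13 without the 5% of each mouse's cells with the most counts.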

How the results depend on the processing

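The numbers of members past 2-fold between diets, 8 in either genotype, were the same under every alternative except a limit of 3-fold, which left 6 in each. Between genotypes on ND the number of 0 became 1 with at least 90% of a cell's hashtag counts its own (*Gdf15*, 2.65) and 1 without the 5% of cells with the most counts (*Gdf15*, 2.61), an alternative chosen after seeing the data. On CDA-HFD it became 1 with the hashtag limit (*Gdf15*, 0.489), 1 with TMM (*Gdf15*, 0.492), 1 with the mean of CPM over cells (*Vegfa*, 0.487), 1 with library sizes without the top 50 genes (*Gdf15*, 0.497), 1 without the 1% of cells with the most counts of the gene (*Gdf15*, 0.422) and 2 at 1.5-fold. The 13 pairs of member and source past 2-fold on CDA-HFD became 5 with each cell gated by its own markers and 8 without the 1% of cells, and lay between 9 and 15 otherwise. Gating reversed *Fn1* (0.794) and *Gdf15* (0.8003) in Ly6C lo monocyte-like cells and *Thbs1* (0.734) in interferon-responding-like cells, and leaving out the deepest cells reversed *Gdf15* in proliferating-like cells (1.13). Members with at least 50% of their counts from 1 class in the CDA-HFD-fed control mouse were 4. They were 2 at resolution 2.0 or when clustered with the members, where *Gdf15* fell to 46.5% and 47.7%, and 5 at resolution 0.5 or with gating, where *Vegfa* rose to 53.6% and 55.2%. In each case the cause was not tested. Of 272 ratios over all cells 268 kept their side of 1, and of 520 within sources 479 did. The 520 leave out clusters 3 and 5. Yet 101 of the 272 left the counting interval of the reported ratio. Of the 520, 105 did so, beside the 4 reversed. Shares of counts left their interval in 33 of 40 values, and shares of cells, once thinned, in 9 of 10. TMM raised the share of all genes' diet calls that were higher from 33.1% to 43.3% in the control mouse and from 32.4% to 43.4% in the Cre mouse. For genotype on ND that share was 68.3%, and 53.4% with the hashtag limit and 57.9% without the deepest cells.

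With 1 mouse per group no alternative could leave out a replicate, and no paired analysis was possible because no group shares a replicate number with another. *Vegfa* had 40 and 31 counts in the ND-fed mice and gave no value for genotype, and without the 1% of cells with the most counts *Gdf15* gave none either. Sources with under 50 cells in a mouse gave no ratio, which left out hLAM-like cells on ND and Kupffer cell-like cells on CDA-HFD. Gating left 22.0%, 21.5%, 4.095% and 5.09% of the cells of the 4 mice without a class. Mature dendritic cell-like *Igf1* and clusters 3 and 5 have no value with gating.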
